A study of Mus musculus with 16 samples.

Results

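In Mettl14 knockout mouse embryonic stem cells (mESCs), 783 stretches of chromatin away from gene ends carried a called peak of histone H3 acetylated at lysine 27 (H3K27ac) in both knockout libraries, and no peak in either control library. They were found by merging the peaks of the 4 deposited H3K27ac lists into 36453 regions. Of these, 28660 touched no window reaching 1 kb to each side of an end of a RefSeq protein-coding gene and are called distal below. The 783 knockout-only regions were 2.73% of the distal regions. The reverse class, called in both control lists and in neither knockout list, held 715 regions, which is 2.49% of the distal regions. A further 1630 distal regions (5.69%) were called in all 4 lists. The H3K27ac calls chose the regions, so their presence in the knockout is a description and is not tested.

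The cells were C57BL/6 mESCs, titled Mettl14 CKO and Mettl14 Control. The labels name no Cre driver, clone or deleted exon, and the peak lists cannot check the deletion. Both groups were kept in serum medium with LIF, the GSK3 inhibitor CHIR99021 and the MEK inhibitor PD0325901, and were assayed by chromatin immunoprecipitation with sequencing (ChIP-seq) with spike-in chromatin. Each of 3 marks had 2 Mettl14 knockout (KO) and 2 control libraries, with 1 peak list per library. The labels do not say whether replicates came from separate cultures, so the spread between them may be technical. An H3K27ac peak lay at or within 1 kb of 18 of 30 genes of naive and core pluripotency in all 4 lists, Pou5f1, Sox2, Nanog and Klf4 among them. The same held for 3 of 16 trophectoderm, 2 of 18 primitive endoderm and 1 of 16 fibroblast markers, and for 14% of all protein-coding genes. The trophectoderm factor Cdx2, the primitive endoderm factors Gata4 and Sox17 and the fibroblast collagens Col1a1 and Col1a2 had none in any list. The lineage markers with a peak in all 4 lists were Gata3, Tead4 and Tfap2a (trophectoderm), Lamc1 and Sparc (primitive endoderm) and Fn1 (fibroblast). Of the pluripotency genes, Dppa3, Gbx2 and Utf1 had no peak in any list.

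METTL14 is the partner of the methyltransferase METTL3 in the enzyme complex that puts N6-methyladenosine (m6A) on RNA. H3K27ac is laid down by the acetyltransferases p300 and CBP and is found at active promoters and enhancers. H3K4me3 is the mark of promoters, and distal enhancers usually carry little of it. H3K27me3 is the product of PRC2, a Polycomb complex, on the same lysine that acetylation occupies.

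The lists give peak positions and widths alone, with no heights, read numbers or p-values, and the depth behind each list is unknown. H3K27ac lists held 15271 and 15058 peaks in KO cells and 15541 and 13520 in control cells. H3K4me3 lists held 8131 and 8055 peaks in KO cells and 2859 and 2431 in control cells, so they differed about 3-fold in length. H3K27me3 lists held 11349 and 11446 peaks in KO cells and 6312 and 7203 in control cells. The labels list an H3K4me3 antibody for the H3K27ac libraries, so the antibody itself could not be checked and the mark in the title was used. More cells that carry a mark and more of it per cell cannot be told apart.

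The distal label went partly against the data: 58 of the 783 knockout-only regions (7.41%) touched a RefSeq start window, which runs from 250 bases before an annotated start of transcription to 50 bases after it. Of the 58, 37 touched the window of a protein-coding gene, and 52 held the start itself. Regions that touch such a window are described below as lying at an annotated start. These are starts inside a longer gene, or starts of non-coding genes, which windows at gene ends do not remove. The 250 bases before the start are shown for 5 of them. Their regions carried H3K27ac and H3K4me3 in both KO lists and neither mark in a control list. That held for 17 of the 58, and the 5 were picked from these with their values in view. Each start lay inside the merged knockout-only region of Tlk2 (a kinase that acts on a histone chaperone), Mettl3 (the catalytic m6A subunit), Midn (midnolin), Ncoa7 (a nuclear receptor coactivator) or Aff1 (a scaffold of the super elongation complex). The whole start window lay within the peak of each KO list at Tlk2 and Aff1, within that of KO replicate 1 at Midn and Ncoa7, and within that of KO replicate 2 at Mettl3. Sequences are from RefSeq on GRCm38.p6, the assembly of mm10, written 5′ to 3′ along the gene. Capitals mark matches, on either strand, to the GC box GGGCGG, the CCAAT box CCAAT or the ETS core CCGGAA, and matches that share letters run together.
Tlk2 (chr11:105181277-105181526, plus strand): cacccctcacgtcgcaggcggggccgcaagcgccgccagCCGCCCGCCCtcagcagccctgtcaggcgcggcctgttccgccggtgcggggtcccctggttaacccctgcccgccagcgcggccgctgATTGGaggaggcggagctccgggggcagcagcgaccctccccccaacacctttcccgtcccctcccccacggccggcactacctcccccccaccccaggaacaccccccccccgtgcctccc
Mettl3 (chr14:52305125-52305374, minus strand): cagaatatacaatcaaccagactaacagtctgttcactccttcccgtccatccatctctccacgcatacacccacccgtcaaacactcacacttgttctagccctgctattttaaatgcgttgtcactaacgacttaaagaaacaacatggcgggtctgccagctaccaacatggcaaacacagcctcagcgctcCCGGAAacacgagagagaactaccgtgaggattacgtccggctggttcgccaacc
Midn (chr10:80148022-80148271, plus strand): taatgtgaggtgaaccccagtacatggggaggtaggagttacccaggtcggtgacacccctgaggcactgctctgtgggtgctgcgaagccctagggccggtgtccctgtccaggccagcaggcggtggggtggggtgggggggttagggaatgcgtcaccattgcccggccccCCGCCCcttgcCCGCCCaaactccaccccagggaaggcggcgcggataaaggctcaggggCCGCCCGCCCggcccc
Ncoa7 (chr10:30803327-30803576, minus strand): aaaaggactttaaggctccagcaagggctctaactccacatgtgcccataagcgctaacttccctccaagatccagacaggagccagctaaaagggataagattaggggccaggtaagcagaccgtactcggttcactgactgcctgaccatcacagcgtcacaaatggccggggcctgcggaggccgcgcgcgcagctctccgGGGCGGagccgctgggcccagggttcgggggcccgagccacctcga
Aff1 (chr5:103753912-103754161, plus strand): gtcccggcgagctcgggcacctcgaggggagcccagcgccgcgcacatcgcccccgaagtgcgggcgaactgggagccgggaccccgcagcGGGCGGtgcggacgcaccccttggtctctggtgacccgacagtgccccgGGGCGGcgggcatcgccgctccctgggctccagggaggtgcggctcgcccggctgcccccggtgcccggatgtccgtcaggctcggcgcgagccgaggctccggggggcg

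Capitals mark 2 GC boxes and 1 CCAAT box before the start of Tlk2, 1 ETS core before that of Mettl3, 4 GC boxes before that of Midn, 1 before that of Ncoa7 and 2 before that of Aff1. CpG dinucleotides numbered 24 at Tlk2, 13 at Mettl3, 14 at Midn, 16 at Ncoa7 and 35 at Aff1. Over the 76 start windows that knockout-only regions touched, the median was 13.5 CpG in the 250 bases, with a GC content of 57.6%. It was 7 CpG and 56.0% for the 31 windows touched by control-only regions, 11 CpG and 54.8% for the 231 touched by regions of all 4 lists, and 6 CpG and 52.4% for all 32851 windows. Some windows overlap each other, as those of genes that run in opposite directions do.

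A GC box was present in 48.7% of the windows touched by knockout-only regions, against 41.9% for control-only regions, 41.6% for regions of all 4 lists and 32.7% for all windows. The CCAAT box was present in 34.2% of the knockout-only windows, 16.1% of the control-only ones, 30.7% of those of all 4 lists and 33.8% of all windows. The ETS core was present in 14.5% of the knockout-only windows, 6.45% of the control-only ones, 13.4% of those of all 4 lists and 12% of all windows. The TATA box TATAAA was present in 3.95% of the knockout-only windows, 6.45% of the control-only ones, 9.09% of those of all 4 lists and 12.4% of all windows. Other patterns were searched too. In the same order, the nuclear receptor half-site AAGGTCA was present in 1.32%, 16.1%, 4.33% and 4.08%. The CRE half-site TGACGT was present in 11.8%, 0%, 9.96% and 6.47%, and the YY1 core GATGGCG in 6.58%, 0%, 2.60% and 2.18%. The E-box CACGTG and the octamer core ATGCAAA lay between 3.23% and 6.02% throughout. These letter matches describe the windows and show no bound factor.

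One knockout-only region held an annotated microRNA gene, Mir182, inside the long non-coding RNA gene Mirc35hg. Its H3K27ac peaks, which merge to chr6:30165874-30167054, were 501 bp and 690 bp wide in the 2 KO lists and shared only a few bases. Mir182 lies near an edge of the merged region, so the peak of a single KO list covers it and the other does not reach it. The mature RNAs of Mir182, a locus of the cluster miR-183/96/182 known from sensory organs, are shown with the seed (bases 2 to 8) in capitals.
mmu-miR-182-5p: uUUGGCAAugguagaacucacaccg
mmu-miR-182-3p: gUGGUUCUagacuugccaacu

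Both arms come from the minus strand of chromosome 6, and no other annotated microRNA gene lay in a knockout-only region.

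The regions were narrow. Their called width had a median of 629 bp in KO replicate 1 and 628 bp in KO replicate 2, and 47.5% and 47.8% were at the 501 bp minimum width of the deposited peaks. Regions of all 4 lists had medians of 2126 bp and 2130.5 bp in the KO lists and 2076.5 bp and 1872 bp in the control lists. Control-only regions, with medians of 627 bp and 501 bp in the control lists, were as narrow as the knockout-only ones. So a width near the minimum was shared by both classes called in 1 condition alone.

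The 2 KO lists often gave a region different widths. In 211 regions both peaks were at the minimum width, in 324 regions 1 was, and in 248 neither was. The Spearman correlation of width between the KO lists was 0.294 over the 783 regions, whose peaks share a 501 bp floor. Widths exceeded 1000 bp in both lists at 67 regions and 2000 bp in both at 11. Where the lists met, the peaks shared a median of 437 bp, or 80.4% of the narrower one, and less than 50% of it in 187 regions. The regions used 794 of the peaks in KO replicate 1 (5.20%) and 792 in KO replicate 2 (5.26%).

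**Figure D1:**
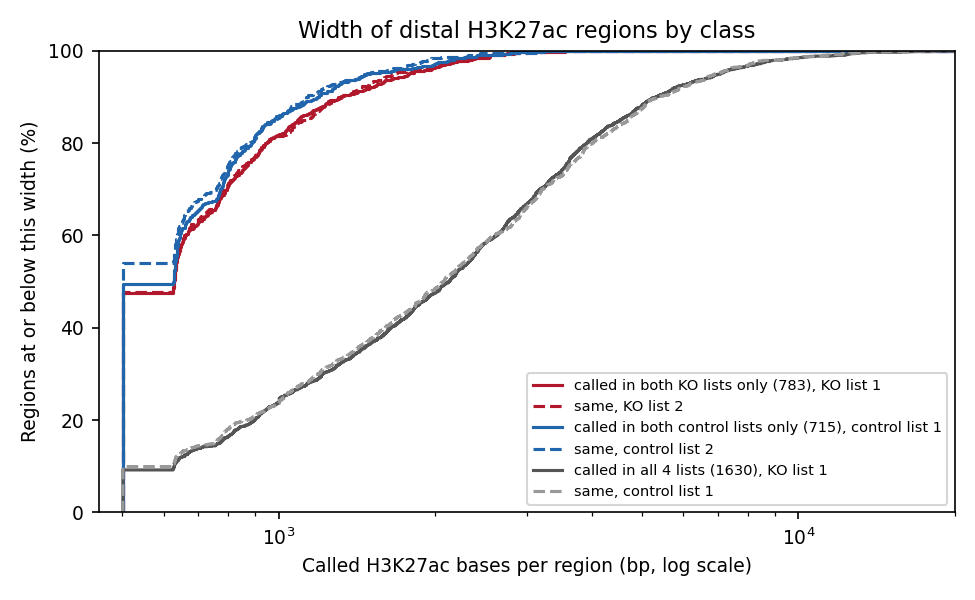
Cumulative share of distal regions (vertical axis, %) by called H3K27ac bases (horizontal axis, bp, log scale), for knockout-only (red), control-only (blue) and all-4-list (grey) regions, with both calling lists drawn for the first classes and KO list 1 and control list 1 for the grey one. The red and blue lines start near 50% at 501 bp and run together, while the grey lines lie far to the right, with medians near 2000 bp.

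Ranked by the smaller of the 2 KO widths, the first knockout-only region lay within Pacsin2, which encodes a membrane-curving protein of endocytosis. Its peaks were 3561 bp and 3300 bp wide in the KO lists (chr15:83442582-83446235). The peaks beside Pawr, the gene of a pro-apoptotic protein, were 2748 bp and 2647 bp wide. Both lay within 10 kb of a control H3K27ac peak, 9346 bp away at Pacsin2 and 298 bp at Pawr.

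Other wide ones, by the smaller KO width, were in Snx18 (a sorting nexin; 2550 bp and 2986 bp), Mcf2 (a guanine nucleotide exchange factor; 2797 bp and 2453 bp) and Tlk2 (2353 bp and 2296 bp). Beside the myelin gene Mog the peaks measured 2136 bp and 2830 bp, and beside Natd1 2797 bp and 2128 bp. Those within Prcc were 2086 bp and 2356 bp wide, and those beside the calcium-binding protein gene Cabp1 2083 bp and 2415 bp. Naa35, a subunit gene of an N-terminal acetyltransferase, held peaks of 2084 bp and 2019 bp. Igf2bp1, whose protein binds m6A-bearing RNA, held peaks of 1995 bp and 2266 bp (chr11:95989778-95992145). Many of these also lay beside control H3K27ac. The nearest control peak was 262 bp away at Snx18, 851 bp at Mcf2, 489 bp at Mog and 424 bp at Prcc. It was 178 bp away at Naa35 and 621 bp at Igf2bp1, against 6210 bp at Tlk2, 7611 bp at Natd1 and 3730 bp at Cabp1.

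Smaller widths between 1761 bp and 1993 bp were found at Slc17a5 (a lysosomal sialic acid transporter), Dnajb9 (a chaperone partner of the endoplasmic reticulum), Fcgrt (the neonatal Fc receptor), Fmnl2 (a formin), Rbpms (an RNA-binding protein) and Ang5 (an angiogenin-family ribonuclease). At Dnajb9 the gene is only the nearest one, since its end lies 979781 bp from the peak. The nearest control H3K27ac peak was 662 bp away at Slc17a5, 399 bp at Dnajb9 and 174 bp at Rbpms. It was 4840 bp away at Fcgrt, 3252 bp at Fmnl2 and 13318 bp at Ang5. In the first 20 regions by width, 2 carried H3K4me3 in both KO lists, those at Tlk2 and Slc17a5. A single H3K4me3 peak of 501 bp was called at Snx18 in KO replicate 1 and at Rbpms in KO replicate 2.

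Most of the regions lay inside genes. A protein-coding span held 444 of the 783 knockout-only regions (56.7%, Wilson 95% interval 53.2 to 60.1%), against 54.3% of control-only regions and 48.3% of regions in all 4 lists. Intervals here cover counting error over regions alone. The median distance to the nearest gene end was 14074 bp for knockout-only, 17542.5 bp for control-only and 17042 bp for all-4-list regions. Within 10 kb of a gene end lay 41.3% of the knockout-only regions, 34.7% of the control-only ones and 35.5% of those in all 4 lists. Over 100 kb away lay 7.54% of the knockout-only, 11.7% of the control-only and 10.1% of the all-4-list regions.

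Start windows were touched more often by knockout-only than by control-only regions. A RefSeq start window was touched by 7.41% of knockout-only regions (Wilson 95% interval 5.77 to 9.46%). For control-only regions the share was 3.08% (2.04 to 4.61%), and for regions of all 4 lists 11.0% (9.61 to 12.7%). A region is 1 place and not a replicate of a condition, and each class pools its lists, so no test over libraries was made of these shares.

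H3K4me3 overlapped the knockout-only regions more often in KO than in control lists. The choice of regions used no H3K4me3 list, but the 2 marks are not independent, since both occur at active promoters. The labels also list an H3K4me3 antibody for the H3K27ac libraries, and the comparison would be circular if that label were right. Of the 783 regions, 57 and 57 overlapped an H3K4me3 peak in the KO lists (7.28% in each), against 9 and 8 in the control lists (1.15% and 1.02%). The mean share was 7.28 ± 0% in KO lists and 1.09 ± 0.0903% in control lists (SD, n = 2 each), a difference of 6.19 percentage points and 6.71-fold. Each KO list exceeded each control list, and the gap was wider than the spread within either pair. The exact two-sided permutation test gave p = 0.33, the smallest that 2 lists against 2 allow, here and below.

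All distal regions together stood at 2.94% and 3.01% in KO lists against 0.935% and 0.816% in control lists, a 3.40-fold difference. The control-only regions stood at 1.40% and 1.26% in KO lists against 0.839% and 1.26% in control lists, a difference of 0.280 points (exact permutation p = 0.67) with 1 value shared by both groups. The KO minus control difference was thus 5.91 points larger at knockout-only than at control-only regions (exact permutation p = 0.33), a contrast chosen with the values in view. It was 1.59 points with the lists at equal length, and 1.74 and 1.93 points without H3K27ac KO replicate 1 or 2. Regions of all 4 lists stood at 11.6% and 11.3% in KO lists against 4.79% and 4.17% in control lists. Against these wider regions the difference at knockout-only regions was 0.80 points smaller (-0.80, exact permutation p = 0.33), and its direction turned with the processing. It was 0.24 with the lists cut to equal length, 1.31 in the wider 50% of each list, and 2.72 with only regions over 5 kb from the other condition's peaks. It was -2.84 and -3.43 without H3K27ac KO replicate 1 or 2, and -0.067 without H3K27ac control replicate 2.

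The H3K4me3 difference was smaller under several settings. With the lists of each mark held to the same number of peaks, the widest ones, as the shortest list has, the difference at knockout-only regions was 1.30 points against 6.19 as deposited. That setting also leaves out narrow peaks and redraws the knockout-only class, with 691 regions. It was 2.72 to 3.04 points when knockout-only was defined from 1 KO H3K27ac list, and 3.59 points without the 58 regions at annotated starts.

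**Figure D2:**
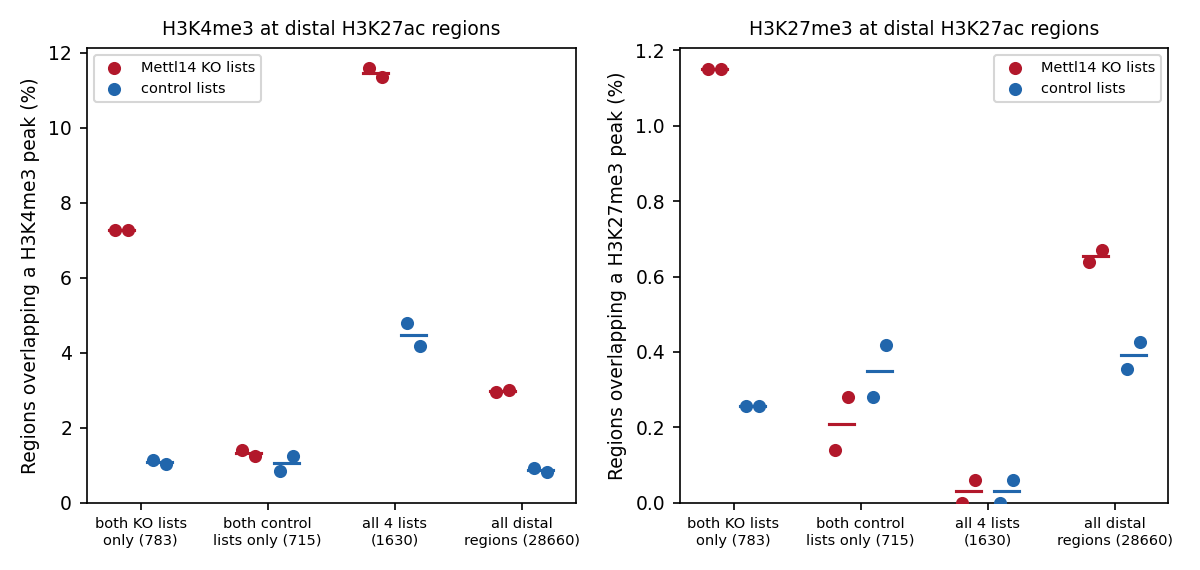
Share of distal H3K27ac regions (vertical axes, %) that overlap an H3K4me3 peak (left) or an H3K27me3 peak (right) in each KO list (red) and control list (blue), by class of region with its number below. Points are lists and bars are group means; at knockout-only regions both KO lists sit at 7.28% for H3K4me3 and 1.15% for H3K27me3, above both control lists.

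H3K4me3 was called in both KO lists at 40 of the 783 regions (5.11%), where all distal regions gave 1.88%. At 30 of them (3.83%, where all distal regions gave 1.09%) no control list had a peak, and 17 of these 30 lay at an annotated start and 23 in a protein-coding span. The other 10 had H3K4me3 in at least 1 control list too. A further 34 regions had H3K4me3 in 1 KO list, and 707 had none in any list. At the 40 regions the H3K4me3 peaks had median widths of 1008 bp and 921 bp in the KO lists, between 501 bp and 2642 bp.

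Ranked by the smaller H3K27ac width of the KO lists, Tlk2 came first among these regions. Its H3K4me3 peaks there were 2481 bp and 2587 bp wide in the KO lists, and neither control list had one. Both marks lay across a start inside the gene, 12635 bp from the nearer gene end. Midn carried H3K4me3 peaks of 2642 bp and 1924 bp in KO lists and none in control lists, over H3K27ac peaks of 1465 bp and 1082 bp.

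Slc17a5 (H3K4me3 of 1813 bp and 1093 bp in KO lists), the corepressor gene Cdyl (1221 bp and 1723 bp), Ncoa7 (1294 bp and 1083 bp) and the neddylation factor gene Dcun1d1 (501 bp and 1478 bp) had no H3K4me3 peak in either control list. Stac2, Cd63 and Elf2 did. At Stac2, which encodes a calcium channel regulator, peaks were 1711 bp and 1322 bp in KO lists against 843 bp in control replicate 2 alone. At the tetraspanin gene Cd63 they were 1388 bp and 1450 bp in KO lists against 627 bp in control replicate 2 alone. At the ETS factor gene Elf2 they were 1806 bp and 1386 bp in KO lists against 632 bp and 1683 bp in control lists, so the groups overlapped there.

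Mettl3 held a knockout-only region at chr14:52304350-52305867, across the start whose sequence is shown. H3K27ac peaks were 501 bp and 1408 bp wide in KO lists, and H3K4me3 peaks 501 bp and 931 bp. Only the H3K27ac peak of KO replicate 2 crossed the start itself, from -633 to 774 bp. In KO replicate 1 H3K27ac ran from -743 to -243 bp and H3K4me3 from 416 to 916 bp, without overlap. H3K4me3 of KO replicate 2 ran from 6 to 936 bp. Neither mark was called there in a control list, and the nearest control H3K27ac peak was 106237 bp away. The region lies 2874 bp from the nearer end of the gene. Its smaller H3K27ac peak is at the minimum width, as in 535 of the 783 regions.

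**Figure D3:**
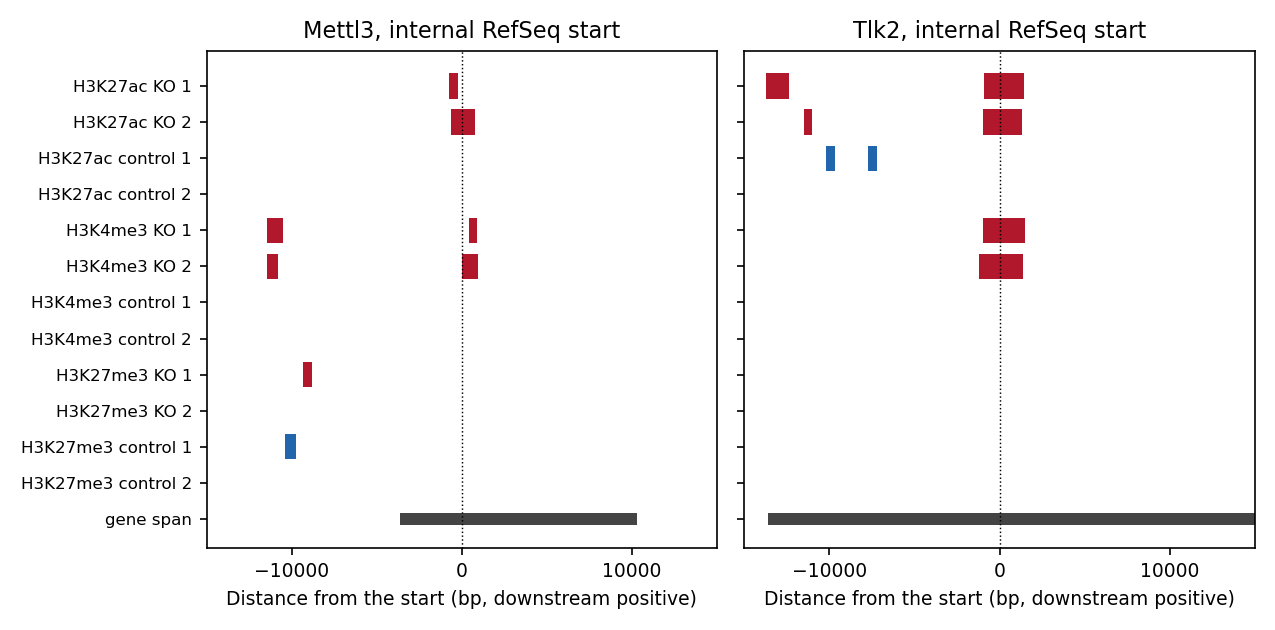
Peaks of 3 marks in KO lists (red) and control lists (blue), 1 row per list, around the internal RefSeq starts of Mettl3 and Tlk2 (horizontal axis, bp from the start, downstream positive), with the gene span in grey, which at Tlk2 runs past the right edge. Around both starts H3K27ac and H3K4me3 peaks are drawn in both KO lists and, within the knockout-only region, in no control list.

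At the starts H3K4me3 was frequent. Of the 58 knockout-only regions at an annotated start, 24 carried H3K4me3 in both KO lists (41.4%), against 4 of 22 control-only regions (18.2%) and 92 of 180 regions of all 4 lists (51.1%). Of the 725 at no annotated start 16 did (2.21%), against 1 of 693 control-only regions (0.144%) and 50 of 1450 regions of all 4 lists (3.45%). By list, H3K4me3 overlapped the 58 regions at 46.6% and 50% in KO lists against 10.3% and 8.62% in control lists. It overlapped the 725 others at 4.14% and 3.86% in KO lists against 0.414% and 0.414% in control lists.

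Many of the knockout-only regions lay beside H3K27ac of the control. The nearest control peak was a median of 2489 bp away, within 1 kb of 258 regions (33.0%) and within 5 kb of 469 (59.9%). Control-only regions lay as near to KO peaks, with a median of 2748 bp, and with 29.2% within 1 kb and 60.6% within 5 kb. The other 314 knockout-only regions (40.1%) had no control peak within 5 kb. Regions of all 4 lists lay within 10 kb of 20.2% of the knockout-only and 22.0% of the control-only regions.

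H3K4me3 and annotated starts were more frequent in the regions far from control H3K27ac. A start window was touched by 3.10% of regions with a control peak within 1 kb, by 7.58% of those with one 1 to 5 kb away, and by 10.8% of those with none within 5 kb. In the first of these, H3K4me3 stood at 3.10% and 2.33% in KO lists against 0.388% and 0% in control lists. In the second it stood at 5.69% and 6.16% in KO lists against 0.474% and 0.474% in control lists. In the third it stood at 11.8% and 12.1% in KO lists against 2.23% and 2.23% in control lists. Both KO lists thus lay above both control lists at each distance, and the difference was 9.71 points over 5 kb from control H3K27ac (exact permutation p = 0.33).

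**Figure D4:**
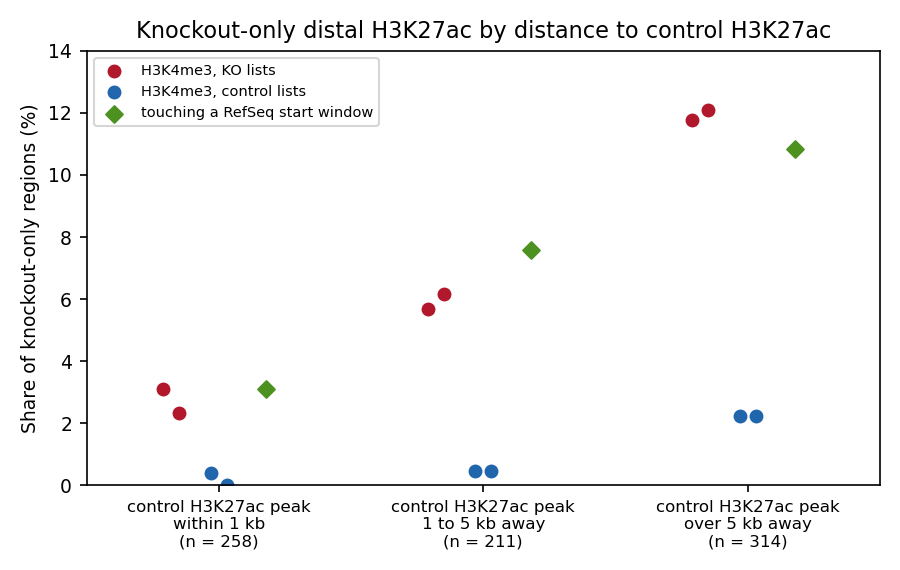
Share of knockout-only distal regions (vertical axis, %) that overlap H3K4me3 in each KO list (red) and control list (blue), or that touch a RefSeq start window (green), by distance to the nearest control H3K27ac peak. The KO points sit between 2.33% and 3.10% within 1 kb and between 11.8% and 12.1% over 5 kb away.

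Width moved with H3K4me3 too. Regions wider than the 501 bp minimum in both KO lists overlapped H3K4me3 at 11.3% and 11.7% in KO lists, against 4.74% and 4.74% for those at the minimum in both. In control lists the shares were 1.61% and 2.42% against 1.42% and 0.474%. A wider region has more bases with which to touch a peak or a start window, and this was not corrected for. A start window was touched by 9.68% of the wider regions and 4.27% of those at the minimum. Regions inside a protein-coding span overlapped H3K4me3 at 9.68% and 9.01% in KO lists, and those between spans at 4.13% and 5.01%.

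H3K27me3 was rare at the knockout-only regions. It overlapped 9 and 9 of the 783 regions in KO lists (1.15% in each) against 2 and 2 in control lists (0.255% in each), a difference of 0.894 points (exact permutation p = 0.33). It was 0.497 and 0.560 points without H3K27ac control replicate 1 or 2. Over all distal regions the shares were 0.639% and 0.670% in KO lists against 0.356% and 0.426% in control lists. Taking only the wider 50% of each list, the difference was 0.294 points, against 2.07 points at regions over 5 kb from control H3K27ac.

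H3K27me3 in both KO lists was found at 4 of the 783 regions, where all distal regions gave 0.237%, and no control list had it at 2 of them, where all distal regions gave 0.112%. The 4 lay beside Mrtfb (a coactivator of serum response factor) and within Zfp516 (a zinc finger gene), Jph2 (a junctophilin of heart muscle) and Gabra5 (a GABA receptor subunit). At Mrtfb the H3K27me3 peaks were 1286 bp and 983 bp in KO lists, with none in control lists. H3K4me3 peaks at the same place were 1198 bp and 1204 bp in KO lists against 501 bp in control replicate 1 alone. At Jph2 H3K27me3 measured 1666 bp and 1409 bp in KO lists against 2137 bp in control replicate 2 alone.

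The genes that hold the regions had H3K4me3 at their own ends more often in KO than in control lists, as genes in general did. Of the 410 protein-coding genes with a knockout-only region in their span, 52.4% and 56.3% had an H3K4me3 peak at a gene end in KO lists against 18% and 14.9% in control lists. The difference was 37.9 points (exact permutation p = 0.33), and 14.7 points with the lists cut to equal length. Genes with a control-only region in their span stood at 51.9% and 56.5% in KO lists against 14.1% and 15.1% in control lists, a difference of 39.6 points. All 21896 protein-coding genes stood at 30.8% and 30.9% in KO lists against 8.0% and 8.08% in control lists. Gene-end H3K4me3 was called in both KO lists and in no control list at 105 of the 410 genes (25.6%), where all genes gave 13.5%. An H3K27ac peak lay at the end of 65 of the 410 genes in all 4 lists (15.9%), against 6.91% of all genes, and was itself knockout-only at 19 (4.63%), where all genes gave 2.87%.

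Assigned to the span that holds its centre or else to the nearest gene end, the 783 regions fell to 699 genes, which is 3.19% of the 21896 protein-coding genes. A single region fell to 628 genes, 2 to 61 and 3 or more to 10. A control-only region also fell to 101 of the 699 genes (14.4%), against 641 of all protein-coding genes (2.93%). A distal region of all 4 lists fell to 203 of the 699 (29.0%), against 1275 of all protein-coding genes (5.82%). The nearest gene is a position and need not be a target of the region. A longer gene has more bases in which regions of any class can fall, and this was not corrected for.

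Rbpms, Aff1 and Zfp704 had 4 regions each, all within the gene. Those of Rbpms lay between 33898664 and 33906976 on chromosome 8, each 3 to 232 bp from a control H3K27ac peak. Aff1 spread its 4 over the gene, 1 of them at the start shown above, where H3K4me3 was 828 bp and 779 bp wide in KO lists and absent from control lists. In Zfp704 the region nearest a gene end had H3K27ac of 648 bp and 1226 bp in the KO lists. The lysosomal mannosidase gene Manba, the membrane-bending gene Fnbp1, Tnrc18, the laminin gene Lamc1, the ubiquitin ligase scaffold gene Cul1, the ketone body enzyme gene Bdh1 and Mfap3 had 3 each. Those of Mfap3 all lay outside the gene, 16153 to 26591 bp from its end.

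Of 356 genes in 20 lists of pathways, complexes and cell types, 28 had a knockout-only region (7.87%, where all protein-coding genes gave 3.19%). A control-only region fell to 37 of them, where all protein-coding genes gave 2.93%. A distal region of all 4 lists fell to 46, where all protein-coding genes gave 5.82%. The listed genes were thus not marked by the knockout-only class alone. A region counted for a listed gene also when it lay outside it, as far as 521067 bp away at Fbxo15. No test of the lists was made, and the counts below, absences included, only describe the lists.

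In the naive and core pluripotency list 3 of 30 genes had one: the nuclear receptor gene Nr5a2, Dppa4 and Fbxo15, against 4 of 30 with a control-only region. The peaks at Nr5a2 and Dppa4 were at the 501 bp minimum in both KO lists. Of formative and primed genes 2 of 17 had one, against 3 with a control-only region. The 2 were Etv5 (656 bp and 1609 bp in the KO lists) and Foxd3 (788 bp and 1500 bp, 18331 bp from the gene). In the FGF-MEK-ERK pathway, whose kinase MEK was inhibited in both groups, 4 of 23 genes had one and 2 had a control-only region. The 4 were the feedback inhibitor gene Spry2 (501 bp and 628 bp), the ETS factor gene Etv5, Myc (501 bp and 501 bp, within Pvt1 and 101629 bp from the gene) and the exchange factor gene Sos1 (771 bp and 958 bp). No gene of the LIF-STAT3 (18 genes), Wnt (23) or Nodal and BMP (23) pathways had one, while 2, 1 and 3 of their genes had a control-only region. Of all protein-coding genes, 3.19% had a knockout-only and 2.93% a control-only region. At those shares a list of this size holds few of either.

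Among chromatin and RNA genes, the m6A list had 2 of 20, Mettl3 and Igf2bp1, both described above, while 5 of the 20 had a control-only region. The Polycomb list had 3 of 25, against 2 with a control-only region. The 3 were Eed (501 bp and 813 bp), a PRC2 core subunit, and the PRC2 partners Jarid2 (501 bp and 829 bp) and Mtf2 (1996 bp and 1406 bp). All regions of these 3 lay outside the genes, 15743 to 56319 bp from the nearest end. DNA methylation and silencing genes had 4 of 22, and 3 with a control-only region. Tet2, a dioxygenase that oxidises 5-methylcytosine, had peaks of 1526 bp and 3285 bp within the gene (chr3:133515500-133518784), and Tet1 had 635 bp and 759 bp. Those within Cbx5 (heterochromatin protein HP1 alpha) were 651 bp and 501 bp wide and those within Morc3 501 bp and 630 bp. One of 16 genes in the list of acetyltransferases, deacetylases and readers had a region (Kat6b, 501 bp and 1250 bp, 5435 bp outside the gene). So did 1 of 17 H3K4 methylation genes (Kmt2a, 626 bp and 501 bp). Control-only regions fell to 4 of these 16 and to 1 of the 17 H3K4 methylation genes.

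Among lineage lists, 3 of 16 trophectoderm markers had one (Tfap2c, Tfap2a and Lgals3), as did 2 of 18 primitive endoderm markers (the laminin gene Lamc1 and the matrix gene Sparc, with 909 bp and 1646 bp), 2 of 17 mesoderm genes (Tbx5 and Kdr), 1 of 15 germline genes (Prdm1) and 1 of 20 housekeeping genes (Actb, 859 bp and 629 bp). The regions of Tfap2c, Lgals3, Kdr, Prdm1 and Actb lay outside the genes, that of Kdr 99670 bp away. Control-only regions fell to 2 of the trophectoderm, 3 of the primitive endoderm, 0 of the mesoderm, 1 of the germline and 1 of the housekeeping genes. None of 16 fibroblast, 18 ectoderm and neural, 15 endoderm or 10 2-cell-like genes had a knockout-only region, and 1, 0, 1 and 1 of them had a control-only one. Apart from Mettl3, no listed gene had H3K4me3 at its knockout-only region in either KO list.

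Non-coding genes were touched by 110 of the 783 regions (14%), against 14.3% of control-only regions and 21.3% of regions of all 4 lists. Long non-coding RNA genes accounted for 99 of them. The named ones were Map2k3os (2797 bp and 2128 bp at the wider of 2 regions), Dgkeos (1732 bp and 2029 bp), Trp53cor1 (lincRNA-p21, a p53 target; 1257 bp and 501 bp), Kantr (632 bp and 501 bp), and Mir205hg, Scpep1os and Pvt1 with 501 bp in both KO lists.

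The regions were spread over the chromosomes. Knockout-only regions were between 1.91% of distal regions (chromosome 9) and 3.56% (chromosome 1) on the autosomes and X. Control-only regions were between 1.65% (chromosome 8) and 3.48% (X). Another knockout-only region lay within 10 kb of 75 of the 783 (9.58%).

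**Figure D5:**
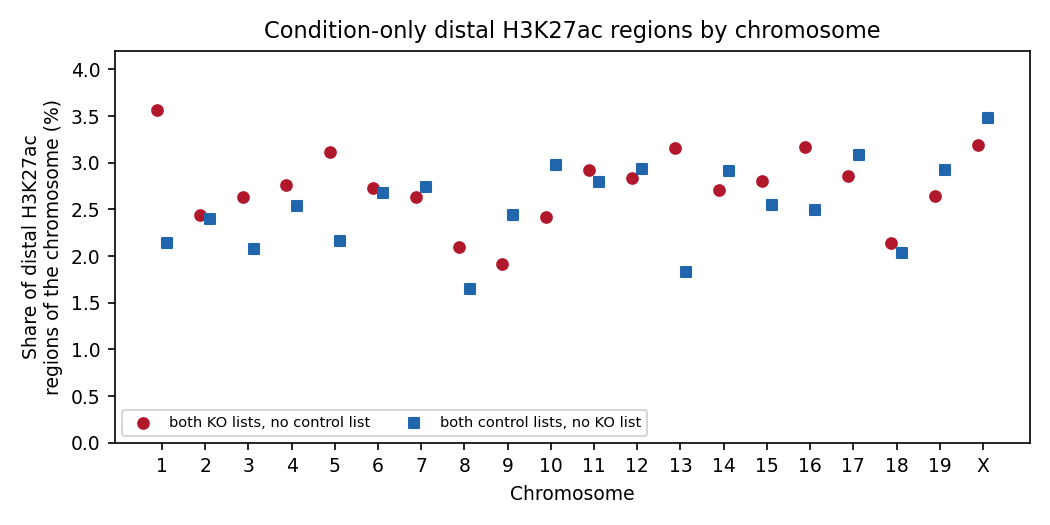
Knockout-only (red circles) and control-only (blue squares) regions as a share of the distal H3K27ac regions of each chromosome (vertical axis, %; horizontal axis, chromosome). All points lie between 1.65% and 3.56%.

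Among distal regions called in exactly 2 lists, 783 of 4066 were called in both KO lists (19.3%), 715 in both control lists (17.6%) and 2568 in 1 list of each condition (63.2%). Each condition offers 1 pair of lists and all other pairs are mixed, so an even split over pairs makes mixed regions most frequent. The shares of both KO lists and of both control lists lay slightly above such a split. An even split takes lists of equal length, which these were not. With the lists at equal length, 691 regions were knockout-only and 697 control-only. The difference from an even split was not tested. A further 20951 distal regions, 73.1% of all, were called in 1 list. Regions near the limits of the rule were close to either side. Knockout-only regions at Bdh1, Rbpms, Tex43, Smyd3 and Ptges lay 0 to 17 bp from a control peak, while regions at Psmd12, Ptges, Gemin7, Ppp2r5e and Tle4 were left out for an overlap of 2 to 24 bp with one. Regions at Wasf2, Cables2, Pcbp1, Clasp2 and Txlnb lay 67 to 170 bp outside a gene-end window, and regions at Mesd, Sp9, Ephx1, Zfp7 and Cstb touched one by 2 to 63 bp and were left out. Gene-end regions that were knockout-only numbered 515 of 7793 (6.61%).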

How the data were processed

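Peak lists of H3K27ac, H3K4me3 and H3K27me3 from 2 Mettl14 KO and 2 control libraries each were used, grouped by their titles. The 4 inputs, and Mettl3 knockout samples named in the series design, were not analysed here. The submitters' processing notes name Bowtie2 2.4.1, Trimmomatic 0.38, HOMER, SAMtools and CASAVA, and build mm10. Which of them called the peaks, with which settings, inputs or spike-in correction, is not given in the sources used here. The deposited score column holds the constant 1 and was not used. Depth is unknown, so lists of unequal length may differ in depth, precipitation or threshold as well as in the mark.

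Peaks of the 4 H3K27ac lists were merged where they shared at least 1 bp. Gene spans and start windows came from RefSeq tables of GRCm38.p6; the span table has no strand, so both gene ends got a window. Shares of regions overlapping another mark were compared between KO and control lists by a two-sided exact permutation test. The steps were tested on simulated data. Regions were ranked by the smaller KO width. The text names genes of the first 20, of the first 10 with H3K4me3 and with H3K27me3 in both KO lists, the 10 genes with most regions, up to 4 genes per list, and the 5 regions either side of each limit. Predicted genes were left unnamed, and a few other genes that the rule selects are not reported here; the non-coding genes and the sequences shown were chosen after their values were seen. The regions and gene lists were chosen with earlier results of these data known. Alternatives were equal list lengths, the wider 50% of peaks, other windows and overlaps, a replicate block and leaving out each list. Python 3.11.15, pandas 2.3.3 and SciPy 1.17.1 were used.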

Additional observations from a re-analysis of the deposited data

How the results depend on the processing

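Of 125 values of the other marks under alternatives, 122 kept their direction. That count includes values that could not turn, since the replicate block leaves each difference as it was. It also includes values close to no difference, such as -0.067 points for H3K4me3 against regions of all 4 lists without H3K27ac control replicate 2. The 3 that turned compare H3K4me3 at knockout-only regions with regions of all 4 lists (-0.80 points as reported): 0.24 with lists at equal length, 1.31 in the wider 50% of each list and 2.72 without regions within 5 kb of the other condition's peaks. The last setting was chosen after seeing the data, as was leaving out regions at annotated starts. The cause was not tested. In the wider 50% of peaks, knockout-only regions numbered 340, control-only regions 341 and the median smaller width was 812.5 bp, fewer and wider by construction. Without regions within 5 kb of the other condition's peaks, 314 and 282 were left. Leaving out 1 list gave 1251 to 6009 knockout-only regions, 5798 and 6009 of them without KO replicate 1 or 2, and 1194 to 6917 control-only regions, since fewer lists must then agree. The share of knockout-only regions inside a gene span was then 55.3 to 60.4%. Equal list lengths gave 691 and 697 regions. Replicate numbers in the labels name the libraries, and the labels do not say whether libraries of the same number share a culture or batch. With the numbers as a replicate block the H3K4me3 difference was the same 6.19 points, where 2 pairs allow no p below 0.5. No p under any setting was below 0.33, so the p-values say nothing about stability.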
